A study of Mus musculus with 4 samples.

Results

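Cytosolic ribosomal protein genes were examined as a set of constitutive promoters in ATAC-seq peak lists of large peritoneal macrophages (LPMs). The set holds 55 genes, 33 of the large (Rpl) and 22 of the small (Rps) ribosomal subunit, of 24963 autosomal genes with a curated RefSeq transcript. Overlapping peaks from the 4 libraries (1 bp or more) were joined into 70744 regions, and a region was assigned to a gene of the set when its midpoint had that gene's TSS as nearest TSS or when it overlapped the gene body. This gave 161 regions, 55 counted as promoters (1 per gene) and 106 others, 1 of which covers the start of Rpl19. ATAC-seq uses the Tn5 transposase to cut and tag open DNA. The LPMs were sorted from the peritoneum of 9-week-old C57BL/6 mice, with 40000 cells per library. Both genotypes carried floxed Rxra and Rxrb alleles (Rxrab fl/fl). The controls were Cre-negative littermates (Rxrab fl/fl, replicates 1 and 3), and LysMCre+ Rxrab fl/fl mice (replicates 1 and 2) expressed Cre from the lysozyme M locus, which is active in the myeloid lineage and not in LPMs alone. The genotypes are called control and LysMCre+ from here on. The labels give the same library batch for all 4 libraries, and peak calls do not show how completely the floxed exons were removed. By qPCR, the paper reports that Rxra and Rxrb transcripts were efficiently reduced in LPMs of the LysMCre+ genotype.

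The cytosolic ribosome translates nuclear messenger RNAs and is built from ribosomal RNA and about equal amounts of each ribosomal protein. Ribosomal protein genes are transcribed at high and coordinated rates in nearly every cell. Their promoters are typically compact, rich in G and C, often lack a TATA box, and start within a run of pyrimidines that also makes the messenger RNA responsive to mTOR signalling. Mutation or haploinsufficiency of single members causes ribosomopathies such as Diamond-Blackfan anaemia.

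The promoter sequences were read from RefSeq windows of the GRCm38.p6 (mm10) build, from 250 bases before to 50 bases after the most upstream annotated start of each gene. Windows were matched for 45 of the 55 genes, of which 43 overlapped the region called at that gene. No window was matched for Rpl3, Rpl7, Rpl8, Rpl17, Rpl30, Rpl32, Rplp1, Rps14, Rps20 and Rps29. An unbroken run of C and T of at least 8 bases covered the start base or the base before it in 13 of 45 windows (28.9%), against 5.36% of all 25748 windows. The longest run had 21 bases. Runs near the annotated start that did not reach it were not counted. The following 30-base stretches have 15 bases before the start and 15 from it. They show the longest runs, that of Rps6 and 2 genes with none at the annotated start, Rps16 and Rplp0. Capitals mark the C and T run.
Rpl7a (chr2:26910792-26910821, plus strand): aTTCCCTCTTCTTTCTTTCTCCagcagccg
Rpl35 (chr2:39005117-39005146, minus strand): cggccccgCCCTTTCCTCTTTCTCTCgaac
Rpl15 (chr14:18270972-18271001, minus strand): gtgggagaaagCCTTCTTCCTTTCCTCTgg
Rpl14 (chr9:120571502-120571531, plus strand): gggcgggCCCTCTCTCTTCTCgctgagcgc
Rps10 (chr17:27635230-27635259, minus strand): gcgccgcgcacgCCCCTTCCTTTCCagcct
Rps6 (chr4:86857353-86857382, minus strand): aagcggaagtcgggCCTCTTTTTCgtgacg
Rps16 (chr7:28350674-28350703, plus strand): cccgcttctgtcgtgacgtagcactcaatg
Rplp0 (chr5:115559452-115559481, plus strand): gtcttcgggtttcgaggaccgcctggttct

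Short motifs were searched on both strands of the same windows. GGGCGG, the core of Sp and KLF sites, was present in 25 of 45 windows (55.6%), against 36.3% of all windows. CCGGAA, the core of ETS sites, was present in 22 (48.9% against 15.4%). GCCATNTT, a YY1-type site, was present in 8 (17.8% against 6.19%). The TATA box (TATAAA) was present in 4 (8.89% against 14.2%) and CCAAT in 14 (31.1% against 37.9%). The NRF1-type site GCATGCGC was present in 1 window, that of Rpl5 (2.22% against 2.80%). CTCGCGAG, a BANP-type site that reads the same on both strands, was present in 5 windows (11.1% against 0.944%), those of Rpl12, Rpl26, Rps6, Rps19 and Rps28. The median GC content was 59.0%, against 53.0% over all windows. The mitochondrial ribosomal protein genes, which make the separate ribosome of mitochondria, had 69 windows. GGGCGG was present in 49.3% of these, ETS-type sites in 56.5% and YY1-type sites in 30.4%. The BANP-type site was present in 2 of these windows, and 5.80% had a run of C and T of 8 bases or more. In 14 windows of cytosolic ribosomal protein genes outside the set, GGGCGG was present in 71.4%, ETS-type sites in 50.0% and YY1-type sites in 28.6%. A match describes the letters only and was not tested as a binding site. The 5 promoters with the BANP-type site are shown from 110 bases before to 10 bases after the start, with CTCGCGAG in capitals. In Rps19 it occurs at 2 places.
Rps19 (chr7:24884482-24884601, plus strand): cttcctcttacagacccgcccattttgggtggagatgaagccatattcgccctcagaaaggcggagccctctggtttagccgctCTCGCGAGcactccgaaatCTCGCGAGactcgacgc
Rps6 (chr4:86857358-86857477, minus strand): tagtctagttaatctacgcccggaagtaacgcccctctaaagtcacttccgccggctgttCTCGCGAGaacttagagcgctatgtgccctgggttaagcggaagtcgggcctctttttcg
Rpl12 (chr2:32961602-32961721, plus strand): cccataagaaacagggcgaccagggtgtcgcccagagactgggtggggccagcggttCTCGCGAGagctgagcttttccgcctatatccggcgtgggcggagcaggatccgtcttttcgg
Rpl26 (chr11:68901456-68901575, plus strand): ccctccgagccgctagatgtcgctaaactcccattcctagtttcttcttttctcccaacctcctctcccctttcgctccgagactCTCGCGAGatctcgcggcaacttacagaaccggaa
Rps28 (chr17:33824553-33824672, minus strand): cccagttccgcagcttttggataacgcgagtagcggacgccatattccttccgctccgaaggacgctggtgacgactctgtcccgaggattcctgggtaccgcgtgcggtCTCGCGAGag

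The libraries differed in strength within and between genotypes. They held 38048 and 16097 peaks in control replicates 1 and 3 and 65421 and 55581 peaks in LysMCre+ replicates 1 and 2, and 15199 regions were called in all 4. Each peak has a fold enrichment, which is the number of extended reads at its summit plus 1 over the local background plus 1. The number of extended reads at the summit (the pileup) and the background were computed back from these values together with the p value, and a solution was found for all peaks but 1 in control replicate 1 and 2 in LysMCre+ replicate 1. The lowest local background of a library, a proxy for its depth, was 1.97 and 1.06 in control LPMs and 1.33 and 1.08 in LysMCre+ LPMs. At the promoters of the 6 LPM markers, peaks were called for 4 and 4 genes in control LPMs and for 6 and 6 in LysMCre+ LPMs. None of the 5 B cell, 3 mast cell and 3 mesothelial markers had a promoter peak in any library. Small peritoneal macrophage or monocyte markers had a promoter peak for 2 and 0 of 4 genes in control LPMs and for 3 and 3 in LysMCre+ LPMs. For granulocyte markers it was 1 and 0 of 4 against 2 and 1, and for T cell markers 1 and 0 of 4 against 1 and 1 (Cd2). Of the small peritoneal macrophage or monocyte markers, Retnla was called in both LysMCre+ libraries and in neither control. The paper reports higher Retnla expression in LPMs with Rxra alone deleted (LysMCre+ Rxra fl/fl). For LysMCre+ Rxrab fl/fl LPMs it reports higher MHCII and, from its ATAC-seq, more accessible chromatin at Retnla. Peaks at such markers therefore cannot tell other cells from altered LPMs. The part of other cells in the results below was not tested.

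Most ribosomal protein promoters were called open in every library. All 55 were called in control replicate 1, 46 in replicate 3, 54 in LysMCre+ replicate 1 and 53 in replicate 2. In all 4 libraries 46 of 55 were called (83.6%), against 63.1% of the 13824 autosomal genes that had a promoter region in at least 1 library. The 22 small-subunit genes were all called in 4 libraries, compared with 24 of 33 large-subunit genes. The difference between the subunits was not tested. With the 16097 peaks of lowest p value taken from each library, 33 of 55 promoters were called in all 4. The matching share over all genes is not given here, so this count is not read as particular to the set. Of the 46 promoters, 6 had the TSS of another gene nearest to the midpoint of the region and were shared with it, those of Rpl7a (Med22), Rpl15 (Nkiras1), Rps2 (Snhg9), Rps18 (Vps52), Rps25 (Trappc4) and Rps28 (Ndufa7).

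The 9 genes that were not called in every library were all of the large subunit, and control replicate 3, which has the fewest peaks, lacked each of them. Rpl26 and Rpl38, whose product has been linked to translation of Hox messenger RNAs, were the strongest of these. Rpl26 had a fold enrichment of 10.2 in control replicate 1 and of 11.2 and 9.33 in LysMCre+ LPMs. Rpl38 had 9.75 in that control and 11.1 and 8.30 in LysMCre+ LPMs, with its summit 534 to 541 bp downstream of the start. Rpl12, which forms the base of the ribosomal stalk, had 6.83 against 9.29 and 6.79. Rpl4, a protein of the wall of the exit tunnel, had 5.03 against 6.88 and 5.05. The other 3 that were called in 3 libraries were weak as well. Rpl17, another protein of the exit tunnel, had 7.39 against 3.77 and 5.38. Rpl18 had 5.95 against 3.82 and 3.27, at a region nearest to the TSS of Sphk2. Rpl19 had 4.91 against 5.81 and 3.57 in the region counted, which begins 144 bp downstream of its start. A further region, chr11:98026532-98026759, covers the Rpl19 start and was placed among the 106 others. It had 4.57 in control replicate 1 and 4.13 in LysMCre+ replicate 1 and was not called in the other two libraries.

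Rpl8, which lies close to the peptidyl transferase centre, was called only in replicate 1 of each genotype, with a fold enrichment of 6.32 in control LPMs and 5.36 in LysMCre+ LPMs. Rpl7 was called only in control replicate 1, with 3.30 and a pileup of 27 in a region of 200 bp. The next region, chr1:16104539-16106167, begins 106 bp upstream of the Rpl7 start, is nearest to the TSS of Rdh10, the retinol dehydrogenase, and was therefore not counted to Rpl7. It was called in all 4 libraries, with 8.24 and 5.84 in control LPMs and 12.8 and 8.94 in LysMCre+ LPMs. The call at Rpl7 thus depends on how neighbouring regions are assigned.

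**Figure D1:**
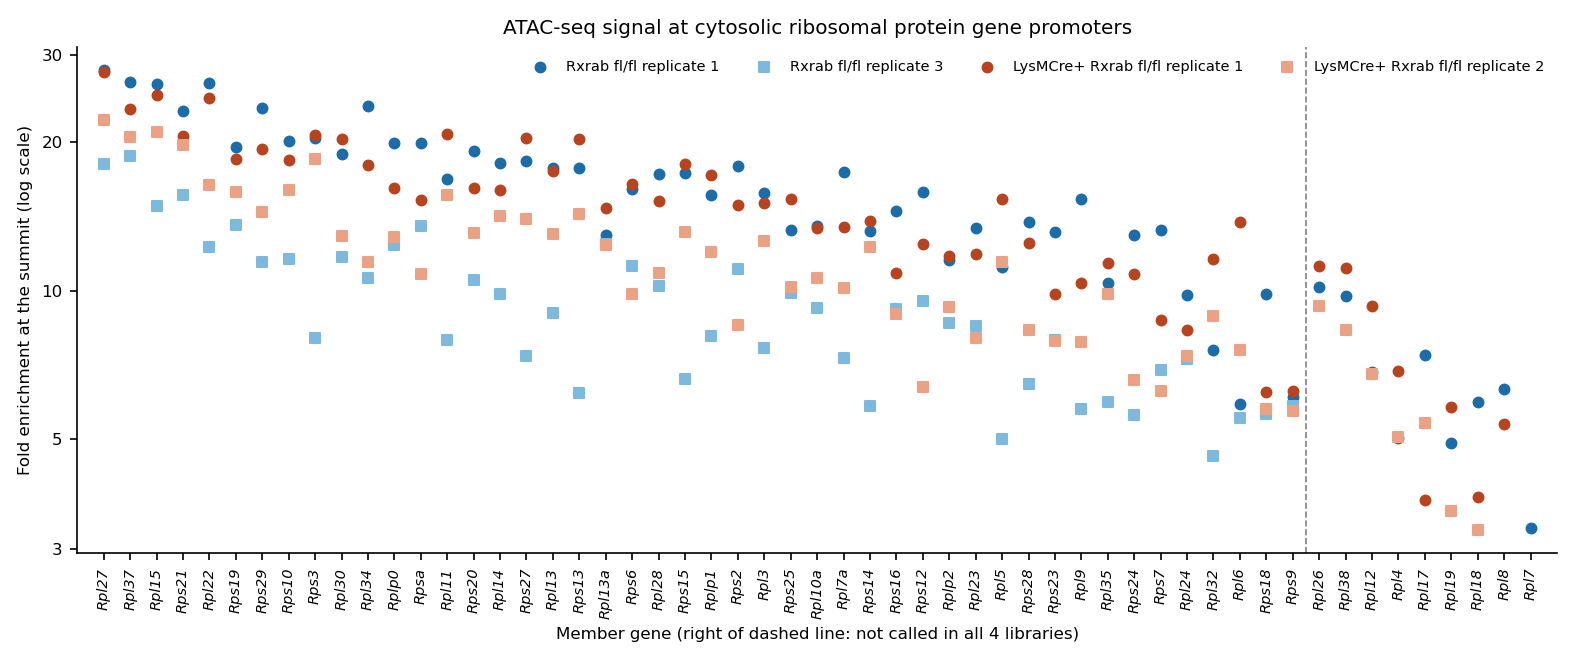
Fold enrichment at the promoter summit (y axis, log scale) of the 55 ribosomal protein genes (x axis), with 1 point per library. Genes left of the dashed line were called in all 4 libraries and are ordered by mean log2 fold enrichment from Rpl27 to Rps9, and for each of these 46 genes replicate 1 lies above the other replicate of the same genotype.

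The level at these promoters was close to that of other promoters in fold enrichment and lower on the pileup. It differed between the libraries of 1 genotype as well as between genotypes. Over the 46 genes, the median fold enrichment was 16.4 and 8.81 in control replicates 1 and 3 and 15.3 and 11.4 in LysMCre+ replicates 1 and 2. Over the 7526 gene promoter regions called in all 4 libraries, it was 16.5 and 8.96 against 16.2 and 12.7. The median of the ribosomal protein genes lay at percentiles 49.2 and 48.4 of all gene promoters in control LPMs and at 44.2 and 39.5 in LysMCre+ LPMs, so they lay near or below the middle of all gene promoters by this measure. Control replicate 1 exceeded replicate 3 at 46 of 46 promoters, by a median factor of 1.74. LysMCre+ replicate 1 exceeded replicate 2 at 46 of 46, by a median factor of 1.32. Between the genotypes, control replicate 1 exceeded LysMCre+ replicate 1 at 29 of 46, by a median factor of 1.06. It exceeded LysMCre+ replicate 2 at 43 of 46, by a median factor of 1.31. Control replicate 3 was exceeded by LysMCre+ replicate 1 at 46 of 46 and by LysMCre+ replicate 2 at 36 of 46. The median ratios of control replicate 3 to these libraries were 0.62 and 0.81. The corresponding pileups had medians of 106 and 23.5 in control LPMs and of 92.0 and 58.5 in LysMCre+ LPMs, below those of all gene promoters in each library (123.5 and 26 against 117 and 71). On the pileup, 17 and 21 of 46 exceeded the median of all gene promoters in control LPMs and 17 and 14 in LysMCre+ LPMs.

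The order of the promoters was shared between libraries. Across the 46 promoters, whose values within a library share its depth, Pearson's r of log2 fold enrichment was 0.911 between the LysMCre+ libraries and 0.757 between the control libraries. Between genotypes it ranged from 0.622 to 0.782. The values for all 7526 gene promoters were 0.895 and 0.755 within and 0.558 to 0.818 between genotypes. These correlations are descriptions across promoters and not across mice.

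Rpl27 was the strongest promoter, at chr11:101441978-101442623. Its fold enrichment was 28.0 and 18.1 in control LPMs and 27.7 and 22.1 in LysMCre+ LPMs. Rpl37 followed with 26.5 and 18.7 against 23.3 and 20.4. Rpl15, whose region is shared with Nkiras1, had 26.2 and 14.8 against 24.9 and 21.0. Rps21 had 23.1 and 15.6 against 20.6 and 19.7. Rpl22, known for a role in the development of lymphocytes, had 26.3 and 12.2 against 24.5 and 16.4. In all 5 the genotypes overlapped before scaling.

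The weakest of the 46 promoters was that of Rps9, at chr7:3703815-3704264, with 6.10 and 5.85 in control LPMs and 6.25 and 5.69 in LysMCre+ LPMs. Its level was nearly the same in the strong and the weak libraries. Rps18 had 9.84 and 5.62 against 6.22 and 5.77. Rpl6 had 5.88 and 5.51 against 13.8 and 7.59, so both LysMCre+ libraries were above both controls in fold enrichment as deposited. Rpl32 had 7.57 and 4.62 against 11.6 and 8.87, with both LysMCre+ libraries again above both controls. Rpl24, whose product forms a bridge between the subunits, had 9.78 and 7.28 against 8.33 and 7.38. From the strongest to the weakest promoter, the fold enrichment ranged from 5.88 to 28.0 in control replicate 1 and from 4.62 to 18.7 in replicate 3.

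Summits lay just upstream of the start. The median position relative to the nearest annotated start of the gene was -51.5 and -60.0 bp in control LPMs and -48.5 and -48.0 bp in LysMCre+ LPMs. Of the 184 summits of the 46 promoters in 4 libraries, 150 were upstream. Within 200 bp of a start were 40 and 40 of 46 summits in control LPMs and 40 and 38 in LysMCre+ LPMs. The summits of the 4 libraries fell within 50 bp of each other at 23 of 46 promoters (50.0%), against 47.6% of all gene promoters. Rpl27, the strongest, had its summits at 19 to 21 bp downstream of the start in all 4 libraries. Rps29, a zinc-binding protein of the small subunit, had them at -44 to -41 bp and Rpl34 at -11 to -4 bp. The regions had a median width of 719 bp after merging.

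**Figure D2:**
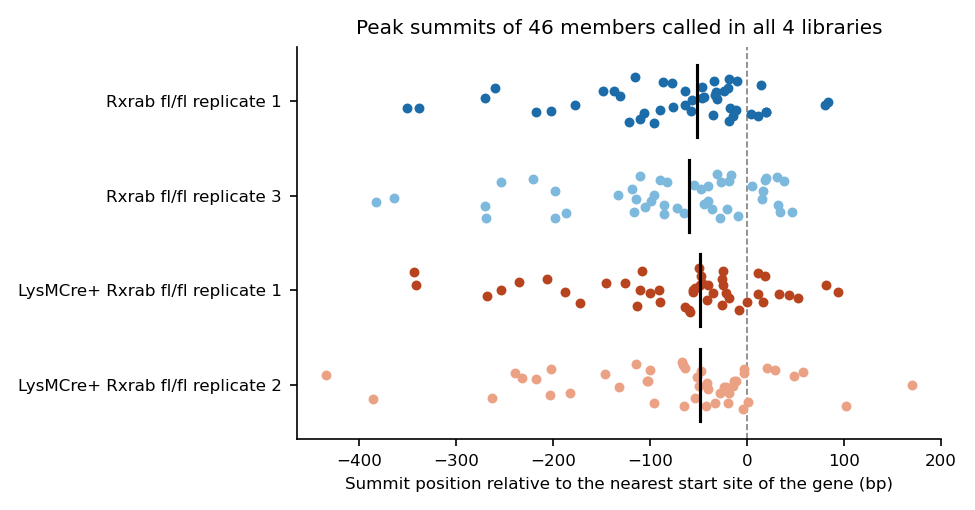
Position of the peak summit relative to the nearest annotated start of the gene (x axis, bp) for the 46 promoters called in all 4 libraries, with 1 row per library, 1 point per gene and a black line at the median. Points are jittered vertically, and the 4 medians lie between -60.0 and -48.0 bp.

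Whether the loss of RXRs went with a change at these promoters was examined on log2 fold enrichment from which the median of the library, taken across the 15199 regions that every library shared, was subtracted. The ribosomal protein promoters tended to be lower in LysMCre+ LPMs relative to the rest of the regions, but none passed the test in fold enrichment. The log2 fold change was below 0 at 36 of 46 promoters (78.3%), against 68.9% of all gene promoters and 59.0% of all regions. Its median was -0.28, against -0.17 over all gene promoters and -0.09 over all regions. The small-subunit genes had a median of -0.34 and the large-subunit genes of -0.24. With limma (a log2 change beyond 1 at a Benjamini-Hochberg adjusted p below 0.05), 0 of 46 promoters were higher in LysMCre+ LPMs, against 0.0395% of all regions, and 0 of 46 were lower, against 0.0461%. At an unadjusted p under 0.05, 11 of 46 promoters passed (23.9%), compared with 3345 of the 15199 regions. Both LysMCre+ libraries were below both controls at 29 of 46 promoters (63.0%), against 32.9% of all regions and 42.1% of all gene promoters. Both were above at 4 of 46 (8.70%), against 22.3% of all regions and 15.3% of all gene promoters. With 2 libraries per genotype, a two-sided exact permutation test of a single value cannot give a p below 0.333, and the p values measure the spread between the libraries deposited. The authors state that ATAC-seq samples which did not cluster with their group were left out, and the effect of this on the spread was not tested. The changes are relative to the regions shared by all 4 libraries, and a change in absolute openness was not tested. Divided by the lowest background of each library, the median pileup of the 46 promoters was 53.8 and 22.2 in control LPMs. It was 69.4 and 54.2 in LysMCre+ LPMs. For all gene promoters it was 62.7 and 24.5 against 88.2 and 65.8. In bulk ATAC-seq, the number of cells with an open promoter and the openness in each cell cannot be told apart.

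On the pileup, which does not divide by the local background, the same promoters were further apart. The median log2 fold change was -0.50, against -0.19 over all gene promoters and -0.10 over all regions. It was below 0 at 34 of 46 promoters (73.9%), against 64.6% of all gene promoters and 57.2% of all regions. The median was -0.58 for the small and -0.36 for the large subunit. With limma at the same threshold, 6 of 46 promoters were lower in LysMCre+ LPMs (4.54% of all regions) and 0 of 46 were higher (2.25% of all regions). By the pileup, 24 of 46 passed an unadjusted p under 0.05 (52.2%), against 31.0% of all gene promoters and 32.5% of all regions. Both LysMCre+ libraries were below both controls at 30 of 46 promoters (65.2%), against 36.8% of all regions and 44.2% of all gene promoters. The 6 calls were lost when either LysMCre+ library was left out, as was every call among all regions. The median log2 change of the 46 promoters was then -0.57 and -0.39 without replicates 1 and 2. Without control replicate 1 it was -0.52. Without control replicate 3, where 53 promoters were covered, it was -0.79.

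The 6 promoters past the threshold on the pileup were those of Rps12, Rps7, Rps23, Rpsa, Rps16 and Rpl34, 5 of them of the small subunit. They are shown from 110 bases before to 10 bases after the start together with the strongest promoter, Rpl27. Capitals mark any of the motifs spelled out above, on either strand. Rps12 has none of these letters in the stretch shown, Rpl34 has the YY1-type site and Rps7 has 2 ETS-type sites, whereas Rpl27, which did not pass the threshold, has 2 adjoining ETS-type sites.
Rps12 (chr10:23787200-23787319, minus strand): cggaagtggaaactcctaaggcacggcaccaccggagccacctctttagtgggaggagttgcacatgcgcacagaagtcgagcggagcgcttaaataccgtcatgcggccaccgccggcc
Rps7 (chr12:28635944-28636063, minus strand): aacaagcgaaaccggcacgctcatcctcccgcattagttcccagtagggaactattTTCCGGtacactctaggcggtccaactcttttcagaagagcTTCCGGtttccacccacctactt
Rps23 (chr13:90923012-90923131, plus strand): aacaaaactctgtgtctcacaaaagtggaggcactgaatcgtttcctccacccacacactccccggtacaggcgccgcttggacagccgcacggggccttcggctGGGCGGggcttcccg
Rpsa (chr9:120127656-120127775, plus strand): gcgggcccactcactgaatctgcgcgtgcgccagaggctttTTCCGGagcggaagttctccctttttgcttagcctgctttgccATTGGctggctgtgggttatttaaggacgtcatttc
Rps16 (chr7:28350579-28350698, plus strand): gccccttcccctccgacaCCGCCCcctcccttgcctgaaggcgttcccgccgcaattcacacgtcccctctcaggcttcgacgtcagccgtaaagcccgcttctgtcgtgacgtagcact
Rpl34 (chr3:130730389-130730508, minus strand): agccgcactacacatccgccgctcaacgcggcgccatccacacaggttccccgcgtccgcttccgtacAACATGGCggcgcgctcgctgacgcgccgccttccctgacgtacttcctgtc
Rpl27 (chr11:101442135-101442254, plus strand): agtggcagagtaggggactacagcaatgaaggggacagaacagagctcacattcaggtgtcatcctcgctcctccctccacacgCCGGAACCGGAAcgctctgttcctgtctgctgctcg

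Rps12, a protein of the head of the small subunit, had a pileup of 81 and 24 reads at its summit in control LPMs and of 38 and 16 in LysMCre+ LPMs, which on the centred log2 scale differed by -1.65 ± 0.28 (SE, adjusted p = 0.0211 from limma). Both LysMCre+ libraries were below both controls after centring. Its local background was 4.18 and 1.62 against 2.14 and 1.66, and in log2 fold enrichment it differed by -0.83 ± 0.24 (adjusted p = 0.0907 from limma), the largest decrease of the set. Rps7 had 51 and 16 reads against 21 and 14, a log2 change of -1.55 ± 0.26 (adjusted p = 0.0209 from limma). Rps23, which lies in the decoding centre and bears on its accuracy, had 64 and 20 against 27 and 20, a log2 change of -1.45 ± 0.26. In the weaker library of each genotype, Rps23 thus reached the same pileup before scaling, and its summits lay at -270 to -260 bp, upstream of the stretch shown. Left out 1 library at a time, the log2 change ranged from -1.95 to -1.36 for Rps12, from -1.86 to -1.53 for Rps7 and from -1.74 to -1.36 for Rps23.

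Rpsa, the laminin receptor homologue of the small subunit, had 159 and 35 reads in control LPMs against 76 and 39 in LysMCre+ LPMs, a log2 change of -1.29 ± 0.23. Rps16, whose tail reaches the tRNA in the decoding site, had 117 and 30 against 51 and 40, a log2 change of -1.23 ± 0.23. Rpl34, the single large-subunit gene among them, had 160 and 31 against 80 and 40, a log2 change of -1.16 ± 0.23. The adjusted p values from limma of these 3 were 0.0211, 0.0232 and 0.0258. Before scaling, the weaker LysMCre+ library had more reads than the weaker control at each of these 3 summits, whereas the stronger one had fewer than the stronger control. Rpl34 fell short of the fold change threshold, at -0.99, when the libraries were centred on promoters instead of all regions. The other 5 passed under each of the 4 scalings and variance models that kept all 4 libraries.

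The set was not uniform, and the change on the pileup was above 0 at 12 of 46 promoters. Rps15, a protein near the decoding site, had 119 and 17 reads against 219 and 124, a log2 change of 0.99 ± 0.25 (limma, adjusted p = 0.0398), just short of the fold change threshold. It passed when the libraries were centred on promoters (1.16) or quantile-normalised (1.09). In fold enrichment Rps15 had 17.3 and 6.62 against 18.1 and 13.1, a log2 change of 0.16 ± 0.22. Its local background was 5.94 and 1.72 against 11.2 and 8.52. Without 1 library at a time, the log2 change in pileup at Rps15 ranged from 0.34 to 1.25. Rpl11 and Rpl5 form a particle with ribosomal RNA that also binds the p53 regulator Mdm2. Rpl11 had 91 and 19 reads against 144 and 83, a log2 change of 0.52 ± 0.22 on the pileup and of 0.27 ± 0.21 in fold enrichment. Rpl5 had 46 and 11 reads against 55 and 49, a log2 change of 0.32 ± 0.24 on the pileup and of 0.45 ± 0.21 in fold enrichment. Neither gene passed the threshold by either measure. Rps13 had 90 and 15 reads against 108 and 83, a log2 change of 0.49 ± 0.23 on the pileup and of 0.33 ± 0.23 in fold enrichment. It did not pass either. The largest increases in fold enrichment were at Rpl6 (0.48 ± 0.28), Rpl5 and Rpl32 (0.41 ± 0.21). On the pileup, the change was 0.06 ± 0.49 at Rpl6 and 0.25 ± 0.27 at Rpl32. After centring, the genotypes overlapped at Rpl6 by both measures.

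The 3 stalk proteins, which recruit the translation factors that hydrolyse GTP, did not pass the threshold by either measure. Rplp0 had a pileup of 194 and 39 reads in control LPMs against 261 and 162 in LysMCre+ LPMs, a log2 change of 0.39 ± 0.21 (limma, adjusted p = 0.241). Its fold enrichment was 19.9 and 12.3 against 16.1 and 12.8, a log2 change of -0.49 ± 0.21 (adjusted p = 0.196 from limma). The 2 measures thus had opposite signs at this promoter, and the local background was higher in both LysMCre+ libraries (15.2 and 11.7) than in control replicate 1 (8.78). Opposite signs were seen at 4 of 46 promoters. Rplp1 had 15.6 and 8.08 against 17.1 and 12.0, a log2 change in fold enrichment of -0.02 ± 0.21. Rplp2 had 11.5 and 8.59 against 11.8 and 9.26, a log2 change in fold enrichment of -0.30 ± 0.23.

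Rps6, Rps19 and Rpl13a, which have well-known roles beyond housekeeping, did not pass the threshold. Rps6, the substrate of S6 kinase, had a fold enrichment of 16.0 and 11.2 in control LPMs against 16.4 and 9.82 in LysMCre+ LPMs, and its pileup was 94 and 30 against 72 and 43, a log2 change of -0.78 ± 0.26 (adjusted p = 0.0783 from limma). Rps19, the gene most often mutated in Diamond-Blackfan anaemia, had 19.5 and 13.6 against 18.5 and 15.9, and its log2 change in pileup was -0.78 ± 0.21 (adjusted p = 0.0492 from limma), short of the fold change threshold. Rpl13a, which silences inflammatory messenger RNAs in interferon-treated myeloid cells, had 13.0 and 12.5 against 14.7 and 12.4, with a log2 change in fold enrichment of -0.28 ± 0.27. Rps2 and Rps18 were among the 5 largest decreases in fold enrichment. Rps2, at the messenger RNA entry channel, had 17.9 and 11.0 against 14.9 and 8.52, a log2 change of -0.69 ± 0.23. The change at Rps18 was -0.68 ± 0.21. Neither passed the threshold in limma.

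**Figure D3:**
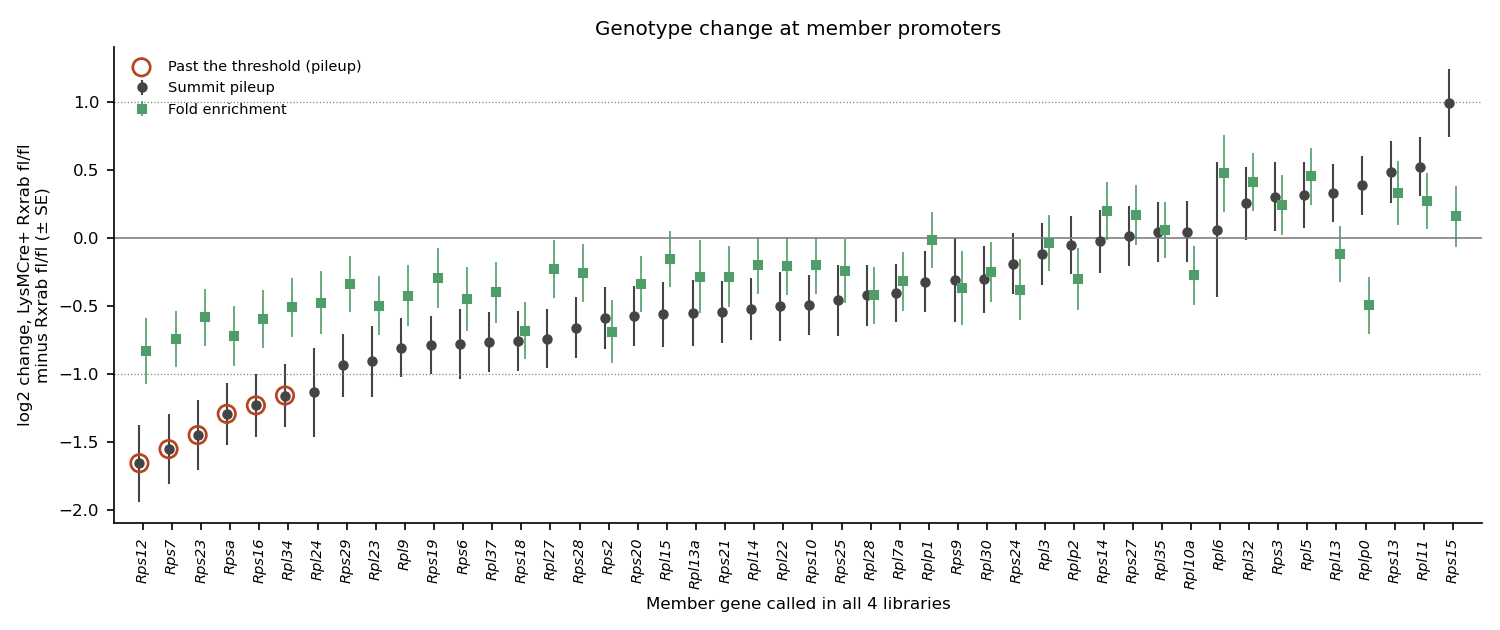
Log2 change between genotypes (y axis, LysMCre+ minus control, centred on the library medians) at the 46 promoters called in all 4 libraries (x axis), with error bars of 1 SE from limma, n = 2 libraries per genotype. Black circles are the summit pileup, green squares the fold enrichment, and the 6 open rings, Rps12 to Rpl34, passed the threshold on the pileup.

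Other gene groups of protein synthesis and turnover were set beside the ribosomal protein genes. The 19 promoters of further cytosolic ribosomal protein genes that were called in all 4 libraries had a median log2 change of -0.43 in fold enrichment and -0.58 on the pileup, where 5 of 19 passed the threshold, all lower in LysMCre+ LPMs. Rpl41 was the lowest of these (-1.14 ± 0.24 on the pileup). The 28 promoters of translation factor genes had medians of -0.38 and -0.49, with 3 of 28 lower on the pileup, the lowest being Eif4b (-1.29 ± 0.21). The 23 promoters of ribosome assembly genes had -0.17 and -0.49, with 1 of 23 lower, Npm1 (-1.06 ± 0.22), a nucleolar chaperone. The 50 promoters of mitochondrial ribosomal protein genes had -0.09 and -0.29, with 4 of 50 lower, the lowest being Mrps14 (-1.71 ± 0.23). The 28 promoters of proteasome genes had -0.14 and -0.36, with 2 of 28 lower, Psmb6 (-1.35 ± 0.21) and Psma2 (-1.25 ± 0.23), the latter at a region shared with Mrpl32. No promoter of these 5 lists was higher past the threshold on the pileup, and none passed in fold enrichment in either direction. Of all gene promoters, 350 of 7524 were lower past the threshold on the pileup and 66 were higher. Of all regions, 4.54% were lower and 2.25% higher. At an unadjusted p under 0.05 in fold enrichment passed 7 of 19, 9 of 28, 5 of 23, 11 of 50 and 3 of 28, in the same order. Over all gene promoters it was 1530 of 7526, and over all regions 3345 of 15199. The counts of the lists were not tested against these. The median change was below 0 by both measures in each list and over all gene promoters, and the difference between the lists was not tested.

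**Figure D4:**
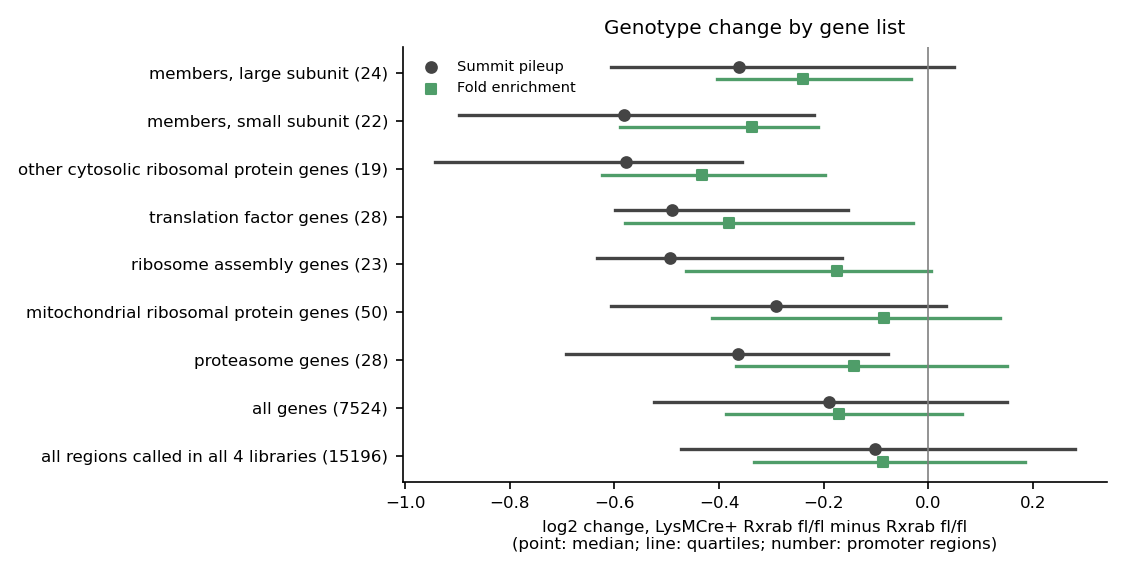
Median log2 change between genotypes (x axis, LysMCre+ minus control) of the promoter regions of each gene list, with lines from the lower to the upper quartile over regions and the number of regions tested on the pileup in brackets. The medians of the 2 subunits (-0.36 and -0.58 on the pileup) lie to the left of all gene promoters (-0.19) and of all regions (-0.10).

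Apart from the regions counted as promoters, the regions assigned to these genes were mostly called in LysMCre+ LPMs alone. The same held for the regions of the whole series that are not gene promoters. Of the 106 regions, which belonged to 34 genes, 40 (37.7%) were called in both LysMCre+ libraries and in neither control. A further 27 (25.5%) were called in a single LysMCre+ library, 10 (9.43%) in all 4 libraries and 1 in a single control. None was called in both controls alone. Of the 58360 regions of the series that are not gene promoters, 15189 were called in both LysMCre+ libraries only and 7673 (13.1%) in all 4. Per library, 39 and 10 of the 106 were called in control LPMs and 91 and 89 in LysMCre+ LPMs, following the number of peaks. With the same number of peaks taken from each library, 8 of the 25 regions left were called in both LysMCre+ libraries alone. The matching share over all other regions is not given here, so this count is not read as particular to the set. None of the 55 ribosomal protein promoters was called in LysMCre+ LPMs only, whereas 7.62% of the 12384 gene promoter regions were called in both LysMCre+ libraries only and 6.52% in 1 of them only.

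Few of these regions were close to the gene, 14 of 106 within 5 kb of the nearest TSS and 35 beyond 50 kb, and 5 overlapped a gene body. Nearness to a TSS does not tie a region to that gene. Rplp1 had the most regions, 22, followed by Rps24 with 13 and Rpl34 with 9. Of the 10 called in all 4 libraries, 2 assigned to Rplp1 passed the threshold on the pileup, both lower in LysMCre+ LPMs (4.54% of all regions). They lay 248221 and 244665 bp downstream of its start. The region at chr9:61666030-61666549 had 93 and 19 reads against 34 and 29, a log2 change of -1.26 (limma, adjusted p = 0.0219). The region at chr9:61669635-61670055 had 70 and 19 reads against 31 and 19, a log2 change of -1.42 (limma, adjusted p = 0.0201). In fold enrichment neither passed, with log2 changes of -0.50 and -0.63. The strong regions that follow were picked after their values were seen. Another region assigned to Rplp1 lay 211835 bp downstream of its start at chr9:61702265-61703086. Its fold enrichment was 18.6 and 13.6 in control LPMs and 17.9 and 13.3 in LysMCre+ LPMs. Among those assigned to Rps24, the region at chr14:24779049-24779722, 288632 bp downstream, had 21.6 and 13.8 against 23.3 and 20.1 and was stronger than the Rps24 promoter itself. Its log2 change was -0.04 in fold enrichment and 0.62 on the pileup, with limma adjusted p values of 0.924 and 0.0908. Another, at chr14:24586011-24586547, had 6.06 in control replicate 1, was not called in replicate 3 and had 23.6 and 17.4 in LysMCre+ LPMs. Upstream of Rpl34, the region at chr3:130899971-130900578 had 5.83 in replicate 1 of control LPMs, was not called in replicate 3 and had 18.4 and 15.2 in LysMCre+ LPMs. Regions that were not called in a library have no value there, and no test was made for them.

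**Figure D5:**
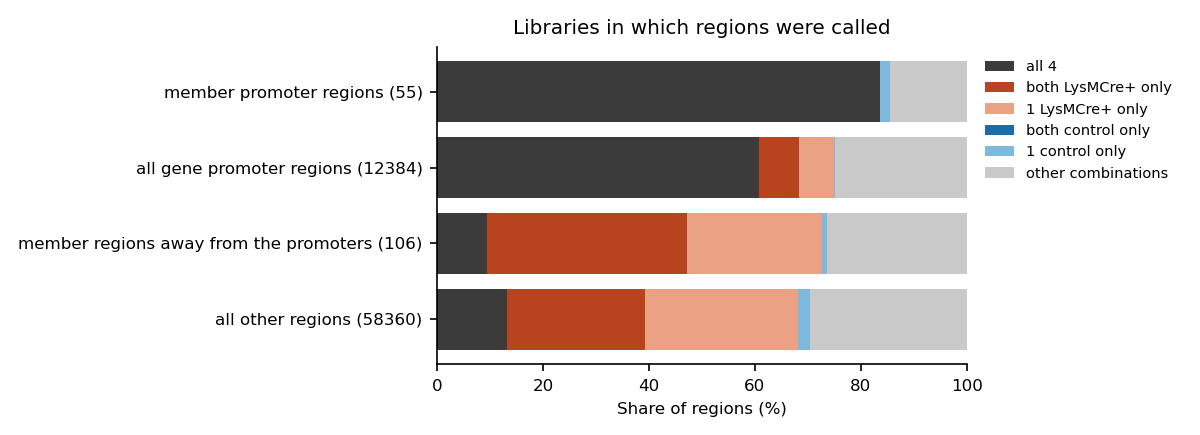
Share of regions (x axis, %) by the libraries in which they were called, for ribosomal protein promoters, all gene promoters, ribosomal protein regions away from the promoters and all other regions, with the number of regions in brackets. Of the ribosomal protein promoters 83.6% were called in all 4 libraries, whereas 37.7% of the other regions, 1 of which covers the Rpl19 start, were called in both LysMCre+ libraries only.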

How the data were processed

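ATAC-seq peak lists of 4 LPM libraries, 2 per genotype, were analysed. The authors trimmed reads with cutadapt 1.7, aligned them to mm10 with Bowtie2 (version 4.1.2 per the labels), removed duplicates, reads with a mapping quality under 30, the sex chromosomes and mitochondrial reads, and called peaks in each library with MACS2 2.1.1 (extension of 200 bp, q under 0.05). Peaks in blacklisted regions were removed with bedtools 2.24.0. The deposited lists give per peak a score, a fold enrichment over the local background, -log10 p and -log10 q values and the summit offset. Read counts were not analysed here, so the authors' differential test on counts was not repeated. Library depth is unknown from the lists beyond the background. Exons of ribosomal protein genes have processed pseudogenes elsewhere in the genome, and the effect of the mapping quality limit on them was not tested.

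Peaks sharing at least 1 bp were merged and assigned by RefSeq (mm10). A promoter region overlapped the window from 1000 bp upstream to 200 bp downstream of a TSS. Log2 fold enrichment, or log2 of the pileup plus 1, was centred on the library median over regions called in all 4 libraries and tested with limma 3.58.1 (R 4.3.3) over all those regions, with Benjamini-Hochberg adjustment, a threshold of 0.05 and a log2 change past 1. The pileup was accepted within 0.003 of the deposited -log10 p. Other steps used Python 3.11.15 with pandas 2.3.3, numba 0.67.0, scipy 1.17.1, numpy 2.4.6 and matplotlib 3.10.9, and the scripts were tested on simulated data. Alternatives covered the measure, the scaling, the peak threshold and number, merging, the variance model, the call rule and each library left out.

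Values per library are given for genes not called in all 4 libraries, genes past the threshold, the 5 strongest and the 5 weakest, the 5 with the largest change in each direction, and Rplp0, Rplp1, Rplp2, Rpsa, Rps6, Rpl5, Rpl11, Rps19 and Rpl13a for their known roles. The genes and lists were chosen with earlier results of these data known.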

Additional observations from a re-analysis of the deposited data

How the results depend on the processing

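All values are for LysMCre+ Rxrab fl/fl against Rxrab fl/fl, and the cause of each shift was not tested. In fold enrichment, 0 of the ribosomal protein promoters passed in either direction under every alternative with all 4 libraries. Over all regions, 6 were higher and 7 lower, which became 9 and 2 with quantile normalisation, 144 and 30 when centred on promoters, 23 and 18 with equal numbers of peaks and 61 and 76 with a mean-variance trend. The median change of the ribosomal protein promoters, -0.28, became -0.23 with quantile normalisation, -0.15 when centred on promoters and -0.23 with equal numbers of peaks. Leaving out 1 library at a time, 0 to 1 promoters were lower (1 without Rxrab fl/fl replicate 3), 3 to 757 regions were higher and 9 to 543 lower, and the median ranged from -0.46 to -0.27. A lone library was assumed to vary like the other genotype.

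The summit pileup gave 0 higher and 6 lower promoters, 342 and 690 regions and a median of -0.50. Its own alternatives were chosen after seeing the data. Centred on promoters, 1 promoter was higher and 5 lower, with 569 and 321 regions and a median of -0.33. With quantile normalisation it was 1 and 6, with 544 and 482 regions and -0.38. With a mean-variance trend it was 0 and 6, with 372 and 658 regions and -0.50. By adjusted p alone, 1 was higher and 9 lower, with 573 and 1128 regions. Without Rxrab fl/fl replicate 1 it was 1 and 9, with 435 and 1174 regions and -0.52. Without Rxrab fl/fl replicate 3 it was 0 and 17 of 53, with 1689 and 2709 regions and -0.79. Without LysMCre+ Rxrab fl/fl replicate 1 no promoter and 0 and 0 regions passed with limma (4020 of 15258 at an unadjusted p under 0.05), with a median of -0.57, and without replicate 2 it was 0 and 0 again (3290 of 15336), with -0.39.

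The median level against all regions was, in log2 fold enrichment, 0.18 and 0.23 for the controls and 0.015 and -0.072 for the LysMCre+ libraries. Against promoters it was -0.014, -0.029, -0.085 and -0.16, and on the pileup it was 0.13, 0.22, -0.10 and -0.15. Promoters called in all 4 libraries numbered 33 with equal numbers of peaks and 40 with peaks reduced to their summits. The shares over all genes under these settings are not given. Of the regions away from promoters, 40 of 106 were seen in the pair of LysMCre+ libraries alone. This became 8 of 25 with equal numbers of peaks and 3 of 5 by overlap with the gene body only. Shares over all other regions are not given for these alternatives. No paired analysis was possible because the genotypes share a single replicate number. Calls are limited by the weakest library, with 16097 peaks.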
